A study of Arabidopsis thaliana with 18 samples.

Results

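The 10 genes described here encode 6 NAC and 4 class I homeodomain-leucine zipper (HD-Zip I) transcription factors of Arabidopsis thaliana that are known from drought and abscisic acid (ABA) responses. They were taken as a list of loci: RD26, ANAC019, ANAC055, ATAF1, ANAC032 and NAP for the NAC family and ATHB7, ATHB12, ATHB6 and ATHB5 for HD-Zip I. They are 10 of the 32399 loci counted, and all 10 had enough reads to be tested. Messenger RNA was sequenced from whole seedlings 12 d old in 3 genotypes: wild type and the mutant alleles ros1-3 and ros1-4 of ROS1, a DNA glycosylase that removes methylated cytosine. Seedlings of each genotype spent 6 h under sterile water with 50 µM ABA or with the solvent alone (mock), so that the mock plants were submerged as well. Each of the 6 groups has 3 libraries, each from a pool of 5 plants. The labels name no separate growth or treatment days for the pools, and p-values here measure the spread between such pools. In whole seedlings, a change in the number of expressing cells and a change in RNA per cell cannot be told apart.

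NAC and HD-Zip I proteins are transcription factor families found in plants, and several of their genes are themselves switched on when ABA accumulates under water deficit. ABA bound to its receptors blocks clade A PP2C phosphatases, which frees SnRK2 kinases to activate AREB/ABF factors at promoter elements with the core ACGTG. RD26, ANAC019 and ANAC055 are close relatives known to bind the ERD1 promoter, ATAF1 and ANAC032 belong to the related ATAF group, and NAP promotes leaf senescence. Among the HD-Zip I genes, ATHB7 and ATHB12 are sister genes whose proteins feed back on ABA signalling by raising PP2C genes and lowering receptor genes. ATHB6 binds the phosphatase ABI1 and restrains ABA responses, and ATHB5 has been described as a positive factor of ABA sensitivity in seedlings.

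The promoters differed in how often they held the ACGTG core, and 4 of those that held it are printed because their genes spanned the range of responses. Each sequence is the 250 bases before the annotated gene start in the TAIR10.1 genome, on the gene's own strand, 5′ to 3′. Capitals mark ACGTG or its reverse complement, CACGT.
RD26 (minus strand, chr4:13709171-13709420): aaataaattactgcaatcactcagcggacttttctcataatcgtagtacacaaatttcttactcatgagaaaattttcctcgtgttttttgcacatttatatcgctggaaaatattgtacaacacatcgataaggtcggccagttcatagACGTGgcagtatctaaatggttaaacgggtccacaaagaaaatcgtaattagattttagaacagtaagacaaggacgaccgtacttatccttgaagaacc
ANAC019 (minus strand, chr1:19698483-19698732): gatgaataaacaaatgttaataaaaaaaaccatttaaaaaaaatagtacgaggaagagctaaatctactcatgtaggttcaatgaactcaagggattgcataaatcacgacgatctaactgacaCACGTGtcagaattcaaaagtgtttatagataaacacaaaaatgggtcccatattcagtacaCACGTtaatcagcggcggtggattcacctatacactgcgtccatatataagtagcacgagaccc
ANAC032 (plus strand, chr1:29099589-29099838): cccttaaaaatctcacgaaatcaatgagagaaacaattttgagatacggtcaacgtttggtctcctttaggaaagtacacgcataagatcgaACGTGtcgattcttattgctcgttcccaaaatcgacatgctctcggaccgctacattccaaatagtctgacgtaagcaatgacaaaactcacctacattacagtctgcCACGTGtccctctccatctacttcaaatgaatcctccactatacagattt
ATHB5 (minus strand, chr5:26104615-26104864): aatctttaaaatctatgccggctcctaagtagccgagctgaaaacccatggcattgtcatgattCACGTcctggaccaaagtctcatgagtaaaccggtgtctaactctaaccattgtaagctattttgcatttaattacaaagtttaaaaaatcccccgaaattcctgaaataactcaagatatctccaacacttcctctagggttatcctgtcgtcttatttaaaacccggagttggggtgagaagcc

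ACGTG, read on both strands, was present in the 250-base window of 5 of the 10 genes, RD26, ANAC019, ANAC032, NAP and ATHB5, and in 22.9% of 27443 promoters of the same length. The palindrome CACGTG, known as the G-box, was present in 3 of the 10, ANAC019, ANAC032 and NAP, and in 6.49% of all promoters. A CACGTG holds both ACGTG and CACGT, so each such site counts as 2 overlapping matches. In the 1000 bases before the start, ACGTG was present for 9 of the 10 genes and in 54.4% of all promoters, and CACGTG for 5 of the 10 and in 14.8%. The HD-Zip I motif CAATNATTG was in none of the 10 windows of 250 bases (0.918% of all), nor was CATGTG, the motif of the ERD1 promoter (11.1% of all). CCGAC, the core of the dehydration response element, was in 1 (12.0% of all).

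The sister genes ATHB7 and ATHB12 shared no ACGTG in these windows but did share another stretch, printed in capitals.
ATHB7 (minus strand, chr2:19166968-19167217): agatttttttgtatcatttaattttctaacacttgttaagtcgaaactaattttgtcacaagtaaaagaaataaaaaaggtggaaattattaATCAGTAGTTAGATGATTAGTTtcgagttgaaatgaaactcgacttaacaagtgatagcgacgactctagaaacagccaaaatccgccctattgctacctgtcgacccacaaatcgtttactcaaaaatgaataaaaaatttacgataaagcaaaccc
ATHB12 (minus strand, chr3:22915394-22915643): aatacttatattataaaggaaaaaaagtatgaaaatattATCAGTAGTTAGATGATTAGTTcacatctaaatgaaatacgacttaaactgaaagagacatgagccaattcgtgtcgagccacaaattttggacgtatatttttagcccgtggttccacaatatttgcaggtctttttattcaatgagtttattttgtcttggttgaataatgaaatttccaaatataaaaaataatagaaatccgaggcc
This stretch of 22 bases starts 158 bases before the start of ATHB7 and 211 bases before that of ATHB12. It was found on either strand in 2 of the 27443 windows, which are these. Among the other 44 pairs of the 10 genes, the longest stretch in common ran from 7 to 14 bases. A match is a description of the letters and not a site of binding.

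Levels are CPM, counts divided by library size and by a trimmed-mean (TMM) factor, and are given by library in the order of replicates 1, 2 and 3. Summed levels of tissue markers, here and below, are the exception: they are divided by library size alone, without the TMM factor. Counted reads per library ran from 3304038 to 10275773. ROS1 itself was lower in both mutants, with log2 fold changes of -0.70 and -1.003 in ros1-3 and -1.34 and -1.40 in ros1-4, in mock and ABA in turn (by edgeR, adjusted p = 0.00102, 6.16e-06, 3.68e-07 and 2.82e-08). The first of these calls was lost with the share of multiply aligned reads as a covariate (adjusted p = 0.0532). That share was 9.80% to 13.0% of reads in wild type mock and 3.46% to 4.62% in ros1-4 mock. Shoot markers, 5 genes of the photosynthetic apparatus, summed to 42427 to 56241 CPM. Root markers, 5 genes, summed to 76.5 to 126 CPM in wild type mock and 21.0 to 26.3 CPM in wild type ABA, and none was at 0. Of the 4 seed storage genes, 2 had no counted read, CRU3 with 4 transcript models and CRU1 with 3. A read that fits several models of a locus was not counted, so this does not show that these genes were silent.

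With ABA, 9 of the 10 genes rose and 1, ATHB5, fell, in each of the 3 genotypes. The threshold was an adjusted p of 0.05 (Benjamini-Hochberg over 15853 loci, edgeR's quasi-likelihood test), with no minimum fold. By this rule 38.5% of all tested loci were called in wild type (20.0% higher, 18.5% lower), 38.2% in ros1-3 (19.7% and 18.5%) and 38.2% in ros1-4 (19.8% and 18.4%). Without the TMM factor the median of all loci moved to a log2 fold change of -0.13, -0.16 and -0.17. Higher calls then made 37.4%, 35.5% and 33.6% of calls, against 51.8%, 51.6% and 51.8%, while the 10 genes kept their calls and directions. The median log2 fold change of the 10 genes was 2.57 in wild type, with 2.504 in ros1-3 and 2.65 in ros1-4, beside -0.01, -0.02 and -0.01 over all tested loci. In each genotype no ABA library of any of the 10 genes overlapped a mock library. Over all loci, 24.8% lay wholly higher and 24.2% wholly lower in wild type, 24.4% and 24.5% in ros1-3, and 24.2% and 22.8% in ros1-4. Markers of tissues moved with ABA in the same libraries. Besides the root markers, the summed guard cell markers lay at 73.0 to 80.2 CPM in wild type mock and 52.3 to 63.3 CPM in wild type ABA. In ros1-4 they lay at 84.7 to 90.05 CPM in mock and 68.5 to 75.8 CPM in ABA, and in ros1-3 the ranges overlapped. The 4 guard cell genes did not move together. In wild type MYB60 alone was called, lower (log2 -1.42), and SLAC1 had 0.27 without a call. In ros1-4 MYB60 and KAT1 were called lower and SLAC1 higher (log2 0.53), and in ros1-3 none was called. Of the 5 shoot markers, CAB1, CAB2 and LHB1B1 were called higher and RBCS2B lower in each genotype. The part of these shifts in the changes of the 10 genes was not tested.

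**Figure D1:**
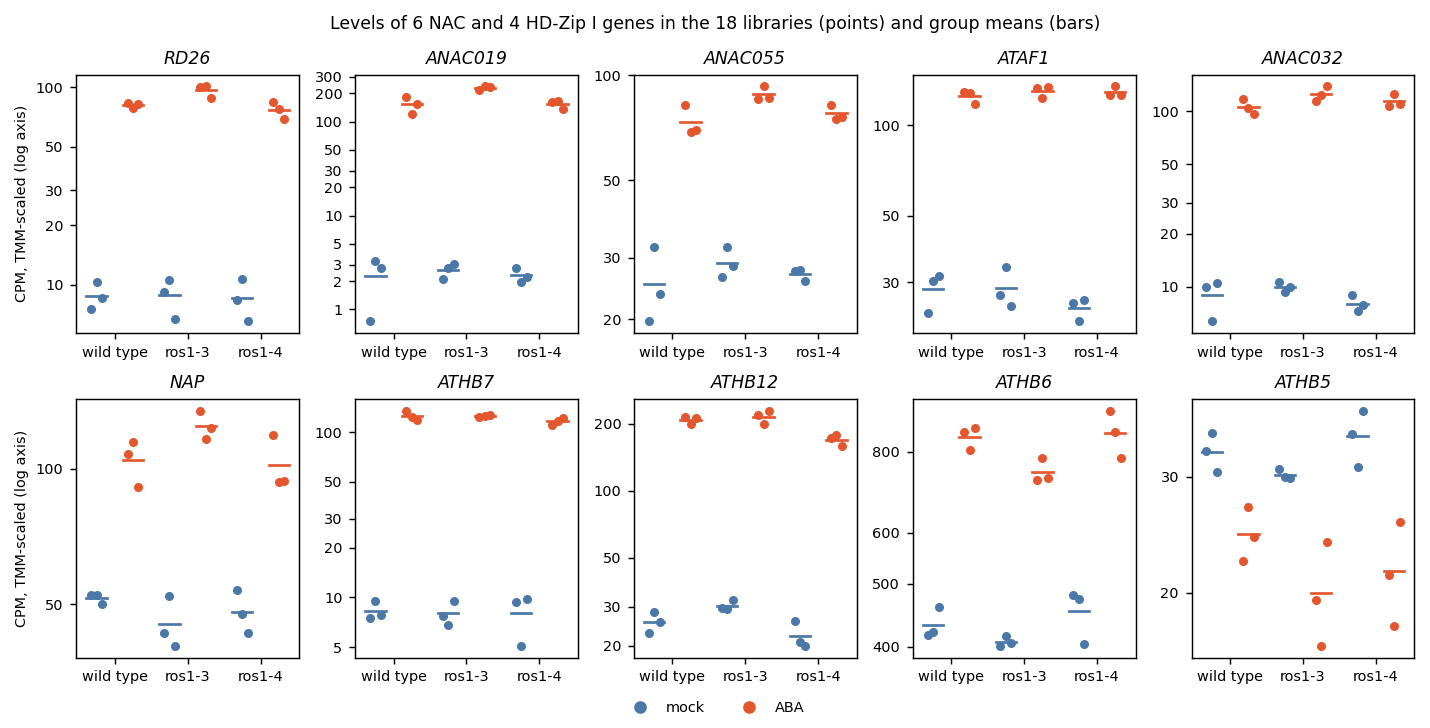
Levels of the 6 NAC and 4 HD-Zip I genes in the 18 libraries, in CPM scaled by TMM factor on a log axis that differs between panels. Points are single libraries and bars the means of 3 libraries. ABA points lie above mock points in 9 panels and below them for ATHB5.

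ANAC019, a NAC gene also known downstream of jasmonate, had the largest change of the 10. It was nearly silent in mock. Wild type mock held 0.751, 3.29 and 2.79 CPM, which were 3, 16 and 28 reads, and wild type ABA held 184, 120 and 153 CPM. In ros1-3 the levels were 2.10, 2.77 and 3.07 CPM in mock and 215, 237 and 232 CPM in ABA. In ros1-4 they were 2.79, 1.94 and 2.24 CPM in mock and 161, 165 and 138 CPM in ABA. Every ABA library was far above every mock library, and the ros1-3 ABA libraries were above those of both other genotypes. The log2 fold change with ABA was 5.94 (SE 0.21) in wild type, with 6.44 (SE 0.22) in ros1-3 and 6.03 (SE 0.22) in ros1-4 (edgeR adjusted p = 6.86e-16, 6.23e-16 and 1.49e-15). It ranked 40 from the top of all tested loci in wild type. The gene (AT1G52890) spans 19696923 to 19698482 on the minus strand of chromosome 1 and has 3 exons.

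RD26, named as a gene responsive to desiccation, rose 9.21-fold in wild type. Wild type mock held 7.51, 10.3 and 8.55 CPM and wild type ABA 82.8, 78.04 and 82.6 CPM. The ros1-3 libraries held 9.24, 10.6 and 6.69 CPM in mock and 101, 101 and 88.1 CPM in ABA. The ros1-4 libraries held 8.36, 10.7 and 6.54 CPM in mock and 84.1, 77.9 and 68.6 CPM in ABA. Mock levels interleaved between the genotypes, and in ABA the ros1-3 libraries were the highest 3. The log2 fold changes with ABA were 3.20 (SE 0.14), 3.43 (SE 0.15) and 3.19 (SE 0.14) in wild type, ros1-3 and ros1-4 (edgeR adjusted p = 2.71e-14, 2.70e-14 and 7.39e-14). RD26 (AT4G27410, chromosome 4, 13707192 to 13709170, minus strand) has 3 transcript models. Model 2 holds 99.7% of its counts, since a read that fits several models was not counted. Its level is therefore understated and is not set against that of other genes.

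ANAC055, the closest relative of ANAC019, started higher and rose less. Wild type held 19.8, 32.3 and 23.6 CPM in mock and 82.2, 68.7 and 69.5 CPM in ABA. The mutants ranged from 25.8 to 32.2 CPM in mock and from 75.1 to 93.0 CPM in ABA. Its log2 fold changes were 1.55 (SE 0.12) in wild type, with 1.61 (SE 0.12) in ros1-3 and 1.53 (SE 0.12) in ros1-4 (edgeR adjusted p = 7.28e-10, 7.78e-10 and 1.31e-09). ANAC055 (AT3G15500) spans 5234457 to 5236196 on the plus strand of chromosome 3.

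ATAF1, which is reported to activate the ABA synthesis gene NCED3 and the senescence gene ORE1, rose from 23.8, 30.2 and 31.4 CPM in wild type mock to 129, 128 and 118 CPM in wild type ABA. The mutants ranged from 22.3 to 33.7 CPM in mock and from 124 to 135 CPM in ABA. The log2 fold changes were 2.11 (SE 0.10), 2.18 (SE 0.11) and 2.37 (SE 0.11) in wild type, ros1-3 and ros1-4 (edgeR adjusted p = 2.35e-13, 3.77e-13 and 7.39e-14). ATAF1 (AT1G01720, chromosome 1, 267993 to 269819, plus strand) is overlapped on the other strand by AT1G04043 over 344 of its 1653 exonic bases and by AT1G01725 over 28. With no strand setting stated, reads of these genes cannot be told apart.

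ANAC032, an ATAF relative that promotes senescence, stood at 10.01, 6.37 and 10.5 CPM in wild type mock and at 117, 104 and 95.8 CPM in wild type ABA. The mutants ranged from 7.27 to 10.7 CPM in mock and from 107 to 139 CPM in ABA. Its log2 fold changes of 3.52 (SE 0.13), 3.64 (SE 0.14) and 3.82 (SE 0.14) in wild type, ros1-3 and ros1-4 were exceeded among the 6 NAC genes only by those of ANAC019 (edgeR adjusted p = 3.97e-15, 6.38e-15 and 2.73e-15). ANAC032 (AT1G77450) spans 29099839 to 29101759 on the plus strand of chromosome 1.

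NAP, the senescence regulator, changed least of the NAC genes and was already well expressed in mock. Wild type held 52.3, 52.4 and 50.0 CPM in mock and 108, 115 and 91.3 CPM in ABA. In ros1-3 the levels were 43.3, 52.1 and 40.4 CPM in mock and 134, 116 and 123 CPM in ABA. In ros1-4 they were 53.8, 47.5 and 43.2 CPM in mock and 119, 93.3 and 94.1 CPM in ABA. The ros1-3 ABA libraries lay above the wild type ones without overlap, while the ros1-4 ABA libraries overlapped with wild type. The log2 fold changes were 1.02 (SE 0.11) in wild type, with 1.46 (SE 0.12) in ros1-3 and 1.08 (SE 0.11) in ros1-4 (edgeR adjusted p = 1.76e-07, 1.80e-09 and 1.25e-07). NAP (AT1G69490) spans 26122080 to 26123514 on the plus strand of chromosome 1.

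ATHB7 had the largest change of the HD-Zip I genes. Wild type held 7.51, 9.45 and 7.86 CPM in mock and 134, 123 and 118 CPM in ABA. In ros1-3 the levels were 7.77, 6.80 and 9.48 CPM in mock and 124, 126 and 127 CPM in ABA. In ros1-4 they were 9.36, 5.09 and 9.72 CPM in mock and 111, 116 and 121 CPM in ABA. The genotypes interleaved in mock, and in ABA their ranges overlapped except that ros1-4 stayed below ros1-3. The ABA response, 15.2-fold in wild type, was a log2 fold change of 3.92 (SE 0.13), with 3.97 (SE 0.14) in ros1-3 and 3.82 (SE 0.13) in ros1-4 (edgeR adjusted p = 2.63e-16, 1.09e-15 and 9.94e-16). ATHB7 (AT2G46680, chromosome 2, 19165274 to 19166967, minus strand) has 2 models, and only 166 bases of the longer RefSeq transcript are in no other. All 7211 of its counts are of model 1, so its level too is understated. Fold changes and ratios of RD26, ATHB7 and ATHB5, which have several models, rest almost wholly on reads of 1 model each. A change in the use of models with ABA was not tested.

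ATHB12, the sister gene, rose in every genotype as well. Wild type held 22.8, 28.6 and 25.7 CPM in mock and 214, 200 and 212 CPM in ABA. In ros1-3 the levels were 29.6, 29.5 and 32.1 CPM in mock and 219, 199 and 229 CPM in ABA. In ros1-4 they were 25.9, 20.8 and 20.0 CPM in mock and 173, 178 and 159 CPM in ABA. The 3 ros1-4 ABA libraries were below those of both other genotypes. The log2 fold changes with ABA were 3.02 (SE 0.10), 2.83 (SE 0.10) and 2.93 (SE 0.10) in wild type, ros1-3 and ros1-4 (edgeR adjusted p = 2.48e-16, 1.43e-15 and 9.94e-16). ATHB12 (AT3G61890) spans 22914154 to 22915393 on the minus strand of chromosome 3.

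ATHB6 held the most reads of the 10 genes in every group and rose 1.95-fold with ABA in wild type. Wild type held 416, 422 and 460 CPM in mock and 856, 804 and 869 CPM in ABA. The mutants ranged from 401 to 481 CPM in mock and from 724 to 924 CPM in ABA. Its log2 fold changes were 0.96 (SE 0.09), 0.87 (SE 0.09) and 0.92 (SE 0.09) in wild type, ros1-3 and ros1-4 (edgeR adjusted p = 1.06e-08, 5.85e-08 and 2.69e-08). ATHB6 (AT2G22430) spans 9525988 to 9527845 on the minus strand of chromosome 2.

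ATHB5 went the other way. Wild type held 32.8, 34.9 and 30.5 CPM in mock and 22.4, 27.0 and 24.3 CPM in ABA. In ros1-3 the levels were 30.9, 29.96 and 29.8 CPM in mock and 19.5, 16.6 and 23.8 CPM in ABA. In ros1-4 they were 34.8, 31.0 and 37.8 CPM in mock and 21.2, 17.8 and 25.7 CPM in ABA. All 9 ABA libraries lay below all 9 mock libraries. The log2 fold changes were -0.41 (SE 0.13) in wild type, with -0.60 (SE 0.14) in ros1-3 and -0.67 (SE 0.13) in ros1-4 (edgeR adjusted p = 0.0127, 0.00218 and 0.000296). The wild type call was lost without mock replicate 2 (log2 -0.36, adjusted p = 0.0564) or ABA replicate 1 (log2 -0.34, adjusted p = 0.0695). A covariate for multiply aligned reads also removed it (log2 -0.38, adjusted p = 0.0878). The calls in both mutants held under every alternative tried. ATHB5 (AT5G65310, chromosome 5, 26101818 to 26104614, minus strand) has 2 models, of which model 1 holds 99.6% of the counts.

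**Figure D2:**
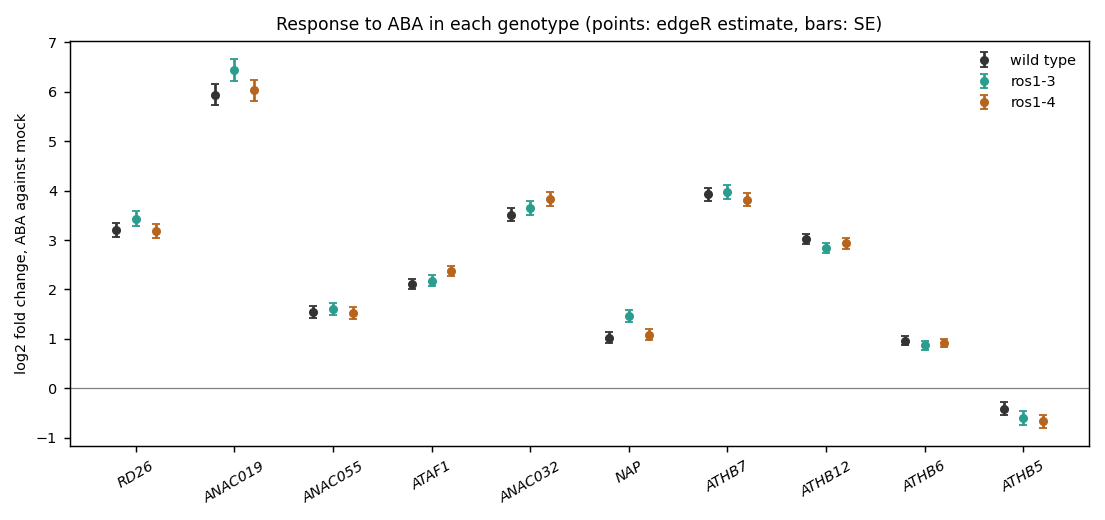
Log2 fold change of each gene between ABA and mock in wild type, ros1-3 and ros1-4. Points are edgeR estimates from 3 libraries a group and bars are their SE. The order of the genes differs little between genotypes, from about 6 for ANAC019 to below 0 for ATHB5.

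Levels can be set against each other per length for the 7 genes with a single model. Per kilobase of exon, ATHB6 was highest in every group, at 262 ± 14.3 CPM per kilobase in wild type mock and 511 ± 20.8 in wild type ABA (SD, n = 3). In wild type mock NAP followed at 41.2 ± 1.07, then ATHB12 at 24.4 ± 2.75, ATAF1 at 17.2 ± 2.49, ANAC055 at 16.3 ± 4.15, ANAC032 at 5.19 ± 1.31 and ANAC019 at 1.67 ± 0.987 CPM per kilobase. The libraries of ATAF1 and ANAC055 overlapped, while the other neighbours in this order did not. In wild type ABA ATHB12 came next after ATHB6, at 198 ± 7.25 CPM per kilobase. ANAC019 moved from the last place to the third, at 112 ± 23.5, and overlapped with NAP at 83.5 ± 9.59, which overlapped with ATAF1 at 75.6 ± 3.67. ANAC032 at 61.0 ± 6.24 and ANAC055 at 47.7 ± 4.93 CPM per kilobase came last, without overlap. In ABA the order by mean was the same in both mutants as in wild type.

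Related genes responded unequally. For 6 pairs of relatives, the log2 ratio of the first to the second gene was taken within each library (CPM + 0.5), and its ABA minus mock difference was averaged over genotypes. In all 6 pairs the exact two-sided permutation test within genotypes gave p = 0.00025, and the same after adjustment over the 6 pairs. This p is the smallest that the 8000 arrangements allow. The pairs among RD26, ANAC019 and ANAC055 are not independent results, since each of their log2 ratios follows from the others. ANAC019 gained on ANAC055 by 4.41 on the log2 scale, and its ratio turned from below 1 in every mock library (log2 -4.02 to -2.87) to above 1 in every ABA library (0.80 to 1.42). RD26 gained 1.67 on ANAC055 but lost ground to ANAC019, with a difference of -2.74. The ratio of ATAF1 to ANAC032 fell by 1.40 on the log2 scale, from between 1.21 and 2.16 in mock to between -0.05 and 0.30 in ABA. Among HD-Zip I genes, ATHB6 gained 1.48 on ATHB5. The sister genes differed least: ATHB7 gained 0.94 on ATHB12, with 0.84 in wild type, with 1.09 in ros1-3 and 0.91 in ros1-4. Within wild type alone every pair kept its direction, but 3 libraries against 3 cannot go below p = 0.1 in this exact test.

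**Figure D3:**
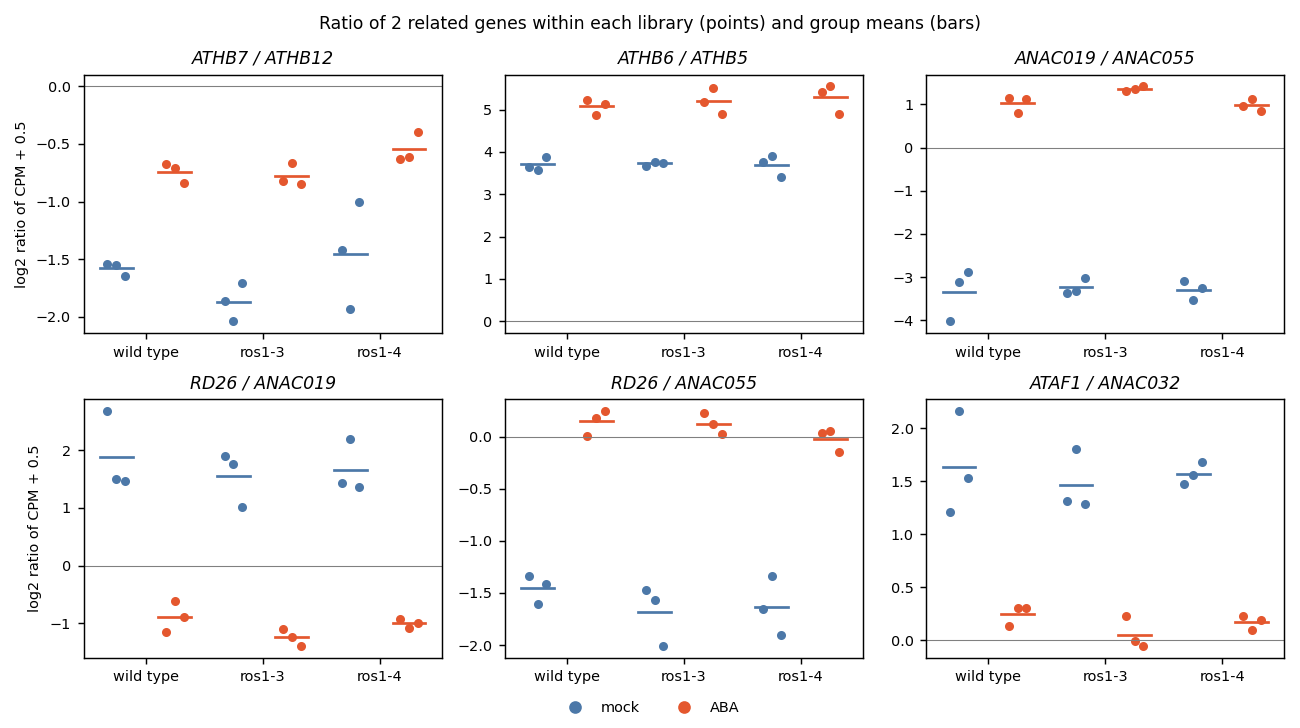
Log2 ratio of CPM + 0.5 between the genes of 6 related pairs in each of the 18 libraries (points), with group means (bars). In each panel the 9 ABA libraries lie apart from the 9 mock libraries.

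Between genotypes the 10 genes differed little in mock. None was called in ros1-3 against wild type, where 1.32% of all tested loci were called (0.309% higher, 1.02% lower), and none in ros1-4, where 0.448% were (0.107% and 0.341%). The log2 differences ran from -0.18 to 0.24 in ros1-3 (SE 0.09 to 0.40) and from -0.22 to 0.10 in ros1-4 (SE 0.09 to 0.39). At an unadjusted p under 0.05 there was 1 gene in ros1-3, ATHB12 (log2 0.24, SE 0.11, edgeR adjusted p = 0.404), and none in ros1-4, beside 12.2% and 6.91% of all tested loci. DESeq2 called none in either. The ros1-3 mock libraries lay wholly above wild type for ATHB12 and wholly below for ATHB6, beside 8.27% and 8.31% of all loci. All 10 genes overlapped between ros1-4 and wild type in mock, where 5.78% of loci lay wholly higher and 5.87% wholly lower. Without the TMM factor, higher calls over all loci made 51.2% in place of 23.3% for ros1-3, with no call among the 10 genes either way. A missed threshold does not show that the levels were equal, and the SE of ANAC019 in mock, with 3 reads in 1 library, was the widest.

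Under ABA, 1 of the 10 genes was called in ros1-3, where 1.72% of all tested loci were called (0.738% higher, 0.984% lower). This was ANAC019, at 228 ± 11.8 CPM in ros1-3 and 152 ± 31.9 CPM in wild type (SD, n = 3), 1.49-fold higher, with a log2 difference of 0.58 (SE 0.13, edgeR adjusted p = 0.0160). In ros1-4 it stood at 154 ± 14.6 CPM, a log2 difference of 0.01 (SE 0.13, edgeR adjusted p = 0.998). The ros1-3 call rests on few libraries. It was lost without wild type replicate 2 (log2 0.43, adjusted p = 0.129) or 3 (0.58, 0.0638), and without ros1-3 replicate 2 (0.55, 0.0840) or 3 (0.57, 0.0731). DESeq2 called this 1 gene too. Without the TMM factor it stayed called, while higher calls over all loci made 60.2% in place of 42.9%. Over all alternatives the log2 difference ran from 0.43 to 0.74 and the adjusted p from 0.000940 to 0.129.

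Some other NAC genes leaned the same way in ros1-3 under ABA, and ATHB5 leaned the other way, without passing the adjusted threshold. RD26, ANAC055, ANAC032 and NAP had log2 differences of 0.25, 0.26, 0.25 and 0.25 (SE 0.11, 0.11, 0.10 and 0.11), with edgeR adjusted p of 0.310, 0.300, 0.300 and 0.316. ATHB5 had -0.29 (SE 0.14, adjusted p = 0.400). With ANAC019 these are the 6 of 10 genes at an unadjusted p under 0.05, beside 12.3% of all tested loci. The ros1-3 libraries lay wholly above wild type for RD26, ANAC019, ANAC055 and NAP, beside 9.23% of all loci, and wholly below for ATHB6, beside 10.1%. The median log2 difference of the 10 genes was 0.15 and that of all loci 0.00. Markers of guard cells, 4 genes, moved in the same libraries. Their level summed without the TMM factor was 52.3 to 63.3 CPM in wild type ABA and 72.8 to 79.6 CPM in ros1-3 ABA. It was also above wild type in ros1-4 ABA, at 68.5 to 75.8 CPM, with none of the 4 called there. None of the 4 was at 0, and 1 was called in ros1-3, the potassium channel gene KAT1 (log2 0.62, SE 0.13, edgeR adjusted p = 0.0138). The KAT1 call was lost without wild type replicate 3 (adjusted p = 0.0659) or ros1-3 replicate 2 (0.138), and the part of these cells in the differences above was not tested.

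In ros1-4 under ABA none of the 10 genes was called, where 0.681% of all tested loci were (0.202% higher, 0.479% lower), and DESeq2 called none. The log2 differences ran from -0.30 to 0.11. The lowest was that of ATHB12, at 170 CPM in ros1-4 (159 to 178) and 209 CPM in wild type (200 to 214, means and ranges, n = 3), a log2 difference of -0.30 (SE 0.08, edgeR adjusted p = 0.150), the 1 gene of 10 at an unadjusted p under 0.05, beside 8.16% of all tested loci. Its 3 libraries lay wholly below wild type, beside 6.76% of all loci, while no member lay wholly above, beside 6.33%. The call was absent under all alternatives, with adjusted p from 0.0900 to 0.639.

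The difference between the ABA response of a mutant and that of wild type passed for none of the 10 genes, nor for any of the 15853 loci (0 called in edgeR for either allele). Unadjusted p under 0.05 were found at 743 loci for ros1-3 and 521 for ros1-4, and DESeq2 called 11 and 1. NAP had a larger response in ros1-3 by 0.44 on the log2 scale (SE 0.16, unadjusted p = 0.0142, edgeR adjusted p = 0.994), the 1 member below 0.05 before adjustment, beside 4.69% of all tested loci. For ANAC019 the difference was 0.50 (SE 0.42, adjusted p = 0.994), so its higher level in ros1-3 under ABA is not shown to be a larger response. The comparisons with wild type share its libraries between the alleles and are not independent.

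**Figure D4:**
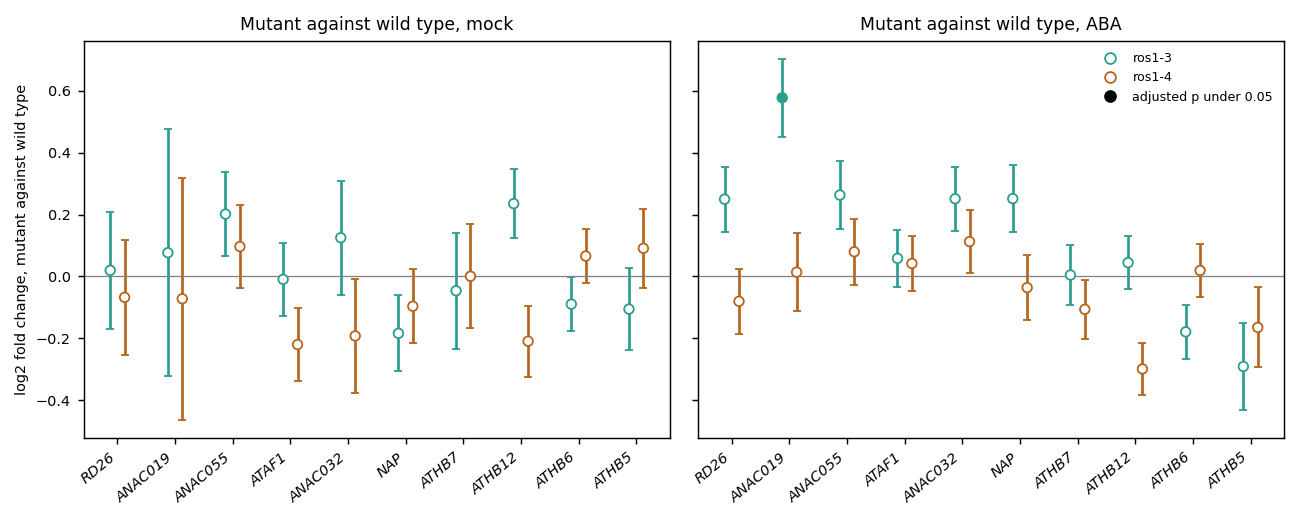
Log2 difference of each mutant from wild type for the 10 genes, in mock and in ABA. Points are edgeR estimates from 3 libraries a group, bars are SE, and the filled point, ANAC019 in ros1-3 under ABA, is the 1 value with an adjusted p under 0.05.

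Most listed NAC relatives that could be tested rose with ABA as well, though by less than the leading members. Of 23 other NAC genes, 19 were tested, and in wild type 13 rose, 1 fell and 5 did not pass, with a median log2 fold change of 0.60 beside -0.01 over all loci. In ros1-3, 12 rose and 3 fell, and in ros1-4, 11 rose and 3 fell. Shares of all tested loci called higher and lower were 20.0% and 18.5% in wild type, 19.7% and 18.5% in ros1-3, and 19.8% and 18.4% in ros1-4. ANAC102, an ATAF relative, stood at 34.1 ± 3.70 CPM in wild type mock and 113 ± 10.7 CPM in wild type ABA, a change of 1.71 on the log2 scale (SE 0.10, edgeR adjusted p = 6.30e-12). ORE1, a central factor of leaf senescence, stood at 27.99 ± 2.04 CPM in mock and 91.5 ± 4.15 CPM in ABA, a change of 1.72 (SE 0.11, edgeR adjusted p = 5.84e-11). VNI2, a repressor of vessel formation, rose by 1.04 (SE 0.09) and ANAC047 by 1.92 (SE 0.20) on the log2 scale (edgeR adjusted p = 3.43e-09 and 1.08e-07). ANAC003 was the 1 other NAC gene called between genotypes, lower in ros1-4 than in wild type under ABA at 20.0 ± 3.47 against 32.3 ± 0.578 CPM (log2 -0.68, SE 0.15, edgeR adjusted p = 0.0299). Leaving out a library could end this call. It was lost without any 1 of the 3 wild type libraries (adjusted p = 0.0699, 0.109 and 0.104 in replicate order) or without ros1-4 replicate 1 (0.136) or 2 (0.189), and with a covariate for multiply aligned reads (0.529). Without the TMM factor ANAC046 and ANAC078 lost their wild type calls and ANAC056 was called lower.

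The other HD-Zip I genes did not share the direction of ATHB7 and ATHB12 as a group. Of 13, 8 were tested, and in wild type 2 rose, 3 fell and 3 did not pass, with a median log2 fold change of -0.44. In ros1-3 the counts were the same, 2 and 3, with ATHB53 and ATHB20 in place of ATHB16 and ATHB23. In ros1-4, 1 rose and 2 fell. Over all tested loci 20.0% were called higher and 18.5% lower in wild type, 19.7% and 18.5% in ros1-3, and 19.8% and 18.4% in ros1-4. With a covariate for multiply aligned reads, 2 of the 8 rose and 1 fell in wild type, and 2 rose and 0 fell in ros1-3. The ros1-3 counts were 2 and 2 with median-ratio scaling and 1 and 3 without the TMM factor. ATHB21 was barely read in mock, with 3 reads over the 3 wild type mock libraries and 88 over the ABA libraries. This is a ratio of 25.2 after scaling, with an exact 95% counting interval of 8.35 to 125 that covers counting error only (edgeR adjusted p = 6.34e-07). ATHB13 fell by 0.44 (SE 0.11), ATHB23 by 0.83 (SE 0.23) and ATHB3 by 0.97 (SE 0.29) on the log2 scale in wild type (edgeR adjusted p = 0.00280, 0.00586 and 0.00976). The calls of ATHB13 and ATHB23 were lost with a covariate for multiply aligned reads (adjusted p = 0.0599 and 0.0841) and that of ATHB23 also without ABA replicate 1 (0.0587). The call of ATHB3 was lost without mock replicate 1 (0.0847) or ABA replicate 2 (0.0518). The small rise of ATHB16 (log2 0.17, adjusted p = 0.0490) was lost with median-ratio scaling or without the TMM factor. ATHB1 had no counted read in any library and was among the 5 not tested.

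**Figure D5:**
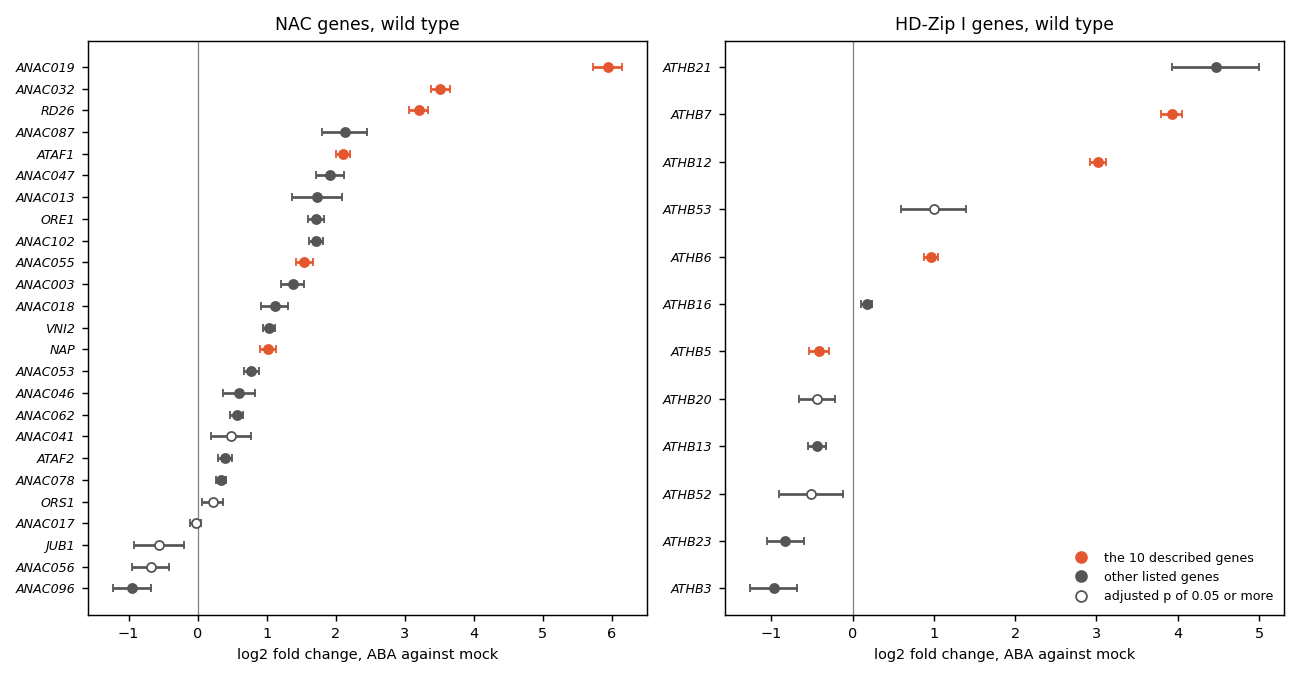
Log2 fold change between ABA and mock in wild type for the tested NAC genes (left) and HD-Zip I genes (right), with SE bars from the edgeR fit. Orange marks the 10 described genes, grey the other listed genes and open points an adjusted p of 0.05 or more. The fitted value of ATHB21 rests on 3 mock reads and depends on the prior count.

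Regulators upstream of these factors and partners of their proteins formed a list of 14, all tested. In wild type 5 rose, none fell and 9 did not pass, with a median log2 fold change of 0.23. Of all tested loci, 20.0% were called higher and 18.5% lower in wild type. ABI1, the phosphatase bound by ATHB6, was raised from 103 ± 3.16 CPM in mock to 605 ± 14.5 CPM in ABA, by 2.54 on the log2 scale (SE 0.08, edgeR adjusted p = 2.18e-16). MYC2, the jasmonate factor upstream of ANAC019 and ANAC055, rose by 0.85 (SE 0.09), and the ABA factors ABI5 by 1.70 (SE 0.21) and ABF2 by 2.58 (SE 0.40) on the log2 scale (edgeR adjusted p = 1.25e-07, 1.31e-06 and 1.76e-05). The value of ABF2 rests on few reads, 10 over the wild type mock libraries and 73 over the wild type ABA libraries. Its log2 fold change was 1.56 in ros1-3 and 1.76 in ros1-4. The BPM and CUL3 genes, whose proteins mark ATHB6 for breakdown, did not pass in wild type, with log2 fold changes from -0.08 to 0.34. In ros1-3, 9 of the 14 rose and in ros1-4, 6, beside 19.7% and 19.8% of all tested loci called higher. Without the TMM factor 6 rose in ros1-3, 5 in ros1-4 and 5 in wild type. BPM4, CUL3A and CUL3B then lost their ros1-3 calls, and BPM4 its ros1-4 call.

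Genes reported as targets of the 10 factors changed in wild type in every tested case. Of 15, 9 were tested, of which 8 rose and 1 fell in each genotype, with a median log2 fold change of 1.46 in wild type. VSP1, BSMT1, GLYI7, GLK1, PYL8 and BDL had too few counted reads, so nothing is said of their direction. All of these but BSMT1 have 2 models, whose shared reads were not counted, and GLK1 had no counted read. Beside these, 20.0% of all tested loci were called higher and 18.5% lower in wild type. SAG113, a PP2C gene reported as a target of NAP, stood at 1.69 ± 0.470 CPM in mock and 266 ± 35.3 CPM in ABA, a change of 7.16 on the log2 scale (SE 0.19, edgeR adjusted p = 6.80e-18). PYL5, an ABA receptor gene reported to be lowered by ATHB7 and ATHB12, fell from 137 ± 19.2 CPM in mock to 18.3 ± 3.05 CPM in ABA, with a change of -2.91 on the log2 scale (SE 0.15, edgeR adjusted p = 9.41e-13). NYE1 and PAO, genes of chlorophyll breakdown reported downstream of NAC factors, rose by 2.04 (SE 0.14) and 1.46 (SE 0.14) on the log2 scale (edgeR adjusted p = 5.49e-11 and 1.35e-08). The small rise of ERD1 (log2 0.37, adjusted p = 0.0288) was lost without the TMM factor. NYE1 was the 1 target called between genotypes, in ros1-3 under ABA, at 110 ± 2.14 CPM against 72.2 ± 14.6 CPM in wild type, a log2 difference of 0.60 (SE 0.12, edgeR adjusted p = 0.00607). It kept that call under all alternatives, with adjusted p from 0.000441 to 0.0477. In ros1-4 under ABA it stood at 75.5 ± 8.71 CPM, with no call.

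By Pearson's r of log2 levels over the 18 libraries, 3 genes most like each member were taken. The points share the split into ABA and mock libraries, so these correlations are a description only. RD26 was most like SKP2A (r = 0.995), RD20 (0.994) and ERD10 (0.993). ANAC019 was most like AT5G17460 (0.996), RD20 (0.995) and AT1G49450 (0.995). ATHB7 was most like the PP2C genes HAI3 (0.996) and HAI2 (0.996), and ATHB12 like NADP-ME1 (0.995) and LTI78 (0.995). ANAC032 was most like AT5G50360 (0.995) and ABI1 (0.994), NAP like AT5G60680 (0.984), and ATHB6 like AT4G34480 (0.986). ATHB5 had the loosest match, AT5G06740 (r = 0.9503), at 6.16 CPM over the mock libraries and 1.26 CPM over the ABA libraries.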

How the data were processed

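The 18 deposited tables hold raw read counts per transcript model (40466 models of 32399 loci), not normalized. The submitters' processing notes name HTSeq 0.6.1, TopHat2 2.0.8, Trim Galore 0.2.8, SAMtools and TAIR10, and no strand setting is given in the sources used here. Rows that name no gene (5 a file, 36.7% to 44.5% of its total) were left out. Ambiguous reads, 32.1% to 33.2% of ambiguous and counted reads, include those shared by models of 1 locus.

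Models were summed per locus. Counts were tested in edgeR 4.0.16 (R 4.3.3) with TMM scaling, filterByExpr and quasi-likelihood F tests on 1 model of 18 libraries with 1 coefficient per group, over 15853 loci, and the code was tested on simulated data. The common biological coefficient of variation was 0.0962. SE is the absolute log2 fold change over the square root of F. No 2 libraries held identical counts. Positions, exon lengths and promoters came from TAIR10.1 by locus, which matched 10 of 10. No 50-base stretch of transcript was shared between the 10 genes.

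The members and lists were chosen with earlier results of these data known. From each list up to 4 genes called in wild type with the smallest p are named, plus any called between genotypes; the genes singled out for a lost call were chosen after their values were seen. Alternatives were another scaling, no filter, 1 model per locus, a replicate block, a covariate, only the groups compared, other pseudocounts, DESeq2 1.42.0 and leaving out each library.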

Additional observations from a re-analysis of the deposited data

How the results depend on the processing

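All 10 genes kept their direction with ABA in each genotype under every alternative, and all but the wild type call of ATHB5 kept their call. The labels do not say whether same-numbered libraries belong together. Of 45 same-numbered pairs, 1 had a correlation of deviations over 0.1 (range -0.17 to 0.236), that of ros1-4 mock and ros1-4 ABA replicate 1. Differently numbered libraries were not compared, so these values cannot decide whether libraries were paired. With the replicate block no call of the 10 genes changed, and loci called were 5864, 5904 and 5878 for ABA in wild type, ros1-3 and ros1-4, 178 and 64 for ros1-3 and ros1-4 in mock, 232 and 96 in ABA, and 0 for both differences in response.

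Loci called moved by over 1.5 times in places. For ros1-3 in mock, 210 became 333 without the filter, 96 with a covariate for multiply aligned reads and 105 to 285 leaving out 1 library. For ros1-4 in mock, 71 became 108, 11 and 47 to 75, and for ros1-4 in ABA, 108 became 202, 44 and 65 to 120. For ros1-3 in ABA, 273 became 138 to 302 leaving out 1 library, and the members called 0 to 1. For the difference in response of ros1-3, 0 became 3 without the TMM factor, 16 without the filter, 4 with the covariate, 11 in DESeq2 and 0 to 6 leaving out 1 library. For ros1-4, 0 became 3 without the filter, 1 in DESeq2 and 0 to 2 leaving out 1 library. The causes were not tested.

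In wild type libraries only, the exact p of every pair was 0.1, the smallest possible, with differences of 0.84 (ATHB7 to ATHB12), 1.37 (ATHB6 to ATHB5), 4.37 (ANAC019 to ANAC055), -2.77 (RD26 to ANAC019), 1.60 (RD26 to ANAC055) and -1.39 (ATAF1 to ANAC032). Low mock counts, 3 to 28 reads a library in wild type, limit ANAC019.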
